A study of Mus musculus with 12 samples.

Results

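The cornified envelope genes described here are 6 mouse genes, Ivl, Sprr2h, Sprr1a, Sprr1b, Lce1g and Crct1, out of 9609 genes tested on the arrays. They were chosen by their log2 signal on the 8 hypoxia arrays, which had been seen to differ between the 2 hypoxia replicates of this study, and every probe with one of these gene symbols was taken, 7 probes in all. That difference is therefore given below as a description, without a test. Of the 6 genes, 5 passed the filter on low signal (detection p-value under 0.01 on at least 2 of the 12 arrays), and the probe of Sprr1b did not.

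RNA was measured on 12 arrays of Illumina Mouse-6 BeadChips in TRAMP-C cells, a line from the prostate tumours of male C57BL6 TRAMP mice. The transgene of these mice expresses SV40 T antigen in the prostate under the probasin promoter. The cells were nucleofected with FOXA2 and HIF-1a together, with FOXA2, with HIF-1a, or with the empty pcDNA vector as control, and 48 h later they spent 12 h in 1% oxygen (hypoxia) or in normoxia. FOXA2 is a forkhead transcription factor and HIF-1a is the subunit of hypoxia-inducible factor that low oxygen stabilises. Each transfection had 1 array of hypoxia replicate 2, 1 of hypoxia replicate 1 and 1 of normoxia, which carries replicate number 1. The labels state transfection in duplicate, but do not say which arrays came from separate cultures, so p-values reflect only how these arrays vary, and that variation may be technical. The oxygen response of replicate 2 has no normoxia array of its own. By the array labels, slide 1 held normoxia and hypoxia replicate 1 of the FOXA2, HIF-1a and control transfections, and slide 2 held all 4 arrays of hypoxia replicate 2 with normoxia and hypoxia replicate 1 of the combined transfection. The combined transfection is thus the only one with both hypoxia replicates on 1 slide. Where a fit takes the slide as a block, its replicate difference therefore rests mainly on the arrays of that transfection, with less precision. The oxygen term of that fit is still shared by all 4 transfections. A call lost in that fit can reflect the lower precision or the slide, which cannot be told apart.

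The arrays had mean probe intensities between 298 and 559, with 15322 to 17182 detected probes out of 45281. Foxa2 signal was 9.27 to 10.98 (log2) on the 6 arrays labelled with the FOXA2 plasmid and 6.14 to 7.07 on the other 6, and Hif1a was 11.98 to 13.18 on the 6 labelled with HIF-1a and 9.06 to 9.64 on the others, so the label of each array matched its plasmid. Of the prostate luminal markers listed, only Hoxb13 had a probe here and it was detected on 0 of 12 arrays. Among simple epithelial markers, Krt18 and Krt7 were detected on 0 arrays, Krt8 on 8, Krt19 on 8 and Cdh1 on 11. The fibroblast genes Col1a1, Col1a2, Col3a1, Dcn and Pdgfra were detected on all 12 arrays.

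The cornified envelope is the shell of crosslinked protein that replaces the plasma membrane of a keratinocyte as it dies at the surface of skin and other stratified epithelia. Involucrin (Ivl) is laid down early under the membrane, small proline-rich proteins (the Sprr family) bridge the other components, and late cornified envelope proteins (the Lce family) join last, all crosslinked by transglutaminases. Their genes lie side by side on mouse chromosome 3 in the epidermal differentiation complex, as does Crct1, which encodes a small cysteine-rich protein. Simple glandular epithelium such as that of the prostate does not normally form an envelope.

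All 6 genes were found in the RefSeq gene table of GRCm38.p6 within the stretch of 53 protein-coding genes that runs from Lor to S100a10 on chromosome 3. RefSeq promoter sequence was at hand for 5 of them, and the 250 bases before the annotated start are shown for 4 whose level differed in the same direction between replicates, because they show which letters these promoters share. Each is written 5′ to 3′ along the gene's own strand and ends at the base before the start. Capitals mark matches to the AP-1 motif TGANTCA (N is any letter), a loose form of the letters bound by Fos and Jun proteins, and to the TATA-box letters TATAAA. Both were searched on either strand.
Ivl (chr3:92573736-92573985, minus strand): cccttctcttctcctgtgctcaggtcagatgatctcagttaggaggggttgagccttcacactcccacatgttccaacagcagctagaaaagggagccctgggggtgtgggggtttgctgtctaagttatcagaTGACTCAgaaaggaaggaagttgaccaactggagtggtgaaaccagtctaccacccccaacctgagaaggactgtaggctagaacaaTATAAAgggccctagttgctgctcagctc
Sprr2h (chr3:92385435-92385684, plus strand): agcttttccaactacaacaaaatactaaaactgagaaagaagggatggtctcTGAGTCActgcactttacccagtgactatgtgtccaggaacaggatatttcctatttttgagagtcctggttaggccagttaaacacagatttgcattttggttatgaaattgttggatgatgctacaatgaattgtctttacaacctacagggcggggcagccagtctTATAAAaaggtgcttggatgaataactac
Sprr1a (chr3:92485882-92486131, minus strand): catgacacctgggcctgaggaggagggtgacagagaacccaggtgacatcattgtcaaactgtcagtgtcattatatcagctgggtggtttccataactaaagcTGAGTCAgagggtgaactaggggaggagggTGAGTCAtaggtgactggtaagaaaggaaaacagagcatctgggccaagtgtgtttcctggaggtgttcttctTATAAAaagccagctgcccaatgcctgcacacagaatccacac
Lce1g (chr3:92752339-92752588, minus strand): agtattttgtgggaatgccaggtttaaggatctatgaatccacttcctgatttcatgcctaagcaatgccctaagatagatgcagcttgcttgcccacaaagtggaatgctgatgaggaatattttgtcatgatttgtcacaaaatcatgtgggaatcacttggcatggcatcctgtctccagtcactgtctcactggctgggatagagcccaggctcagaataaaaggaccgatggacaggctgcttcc

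The AP-1 letters were present in the windows of Ivl, Sprr2h, Sprr1a and Sprr1b, 4 of the 5, and in 6.75% of 32841 RefSeq promoter windows of the same length. Sprr1a held 2 such matches. The middle letter was A in the Sprr1b match (tgaatca) and G or C in the others. TATAAA was present in the same 4 windows and in 12.4% of all windows, and Lce1g held neither motif. The forkhead letters TGTTTNC were found in Sprr1a and Sprr1b, against 17.8% of all windows. CACCC, which KLF factors bind, occurred in Ivl, Sprr1a and Sprr1b and in 52.0% of all windows, and 1 match in Sprr1a overlapped an AP-1 match. Neither ACGTG nor GCGTG, the core letters of hypoxia response elements, occurred in any of the 5 windows, against 16.6% and 28.2% of all windows. These matches describe the letters in the windows and are not binding sites.

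Signals are given as log2 of the background-corrected, normalised intensity. The lowest level of Lce1g, Sprr2h, Ivl, Crct1 and Sprr1a in each transfection was on the array of hypoxia replicate 2, and Sprr2h was 4.64-fold and Ivl 3.96-fold lower there than in replicate 1 on average. Lce1g was below the detection limit on 3 and Crct1 on 4 of the 4 replicate 2 arrays, so their gap is not measured exactly. Since these are bulk RNA samples, fewer cells of a type and less RNA per cell cannot be told apart.

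**Figure D1:**
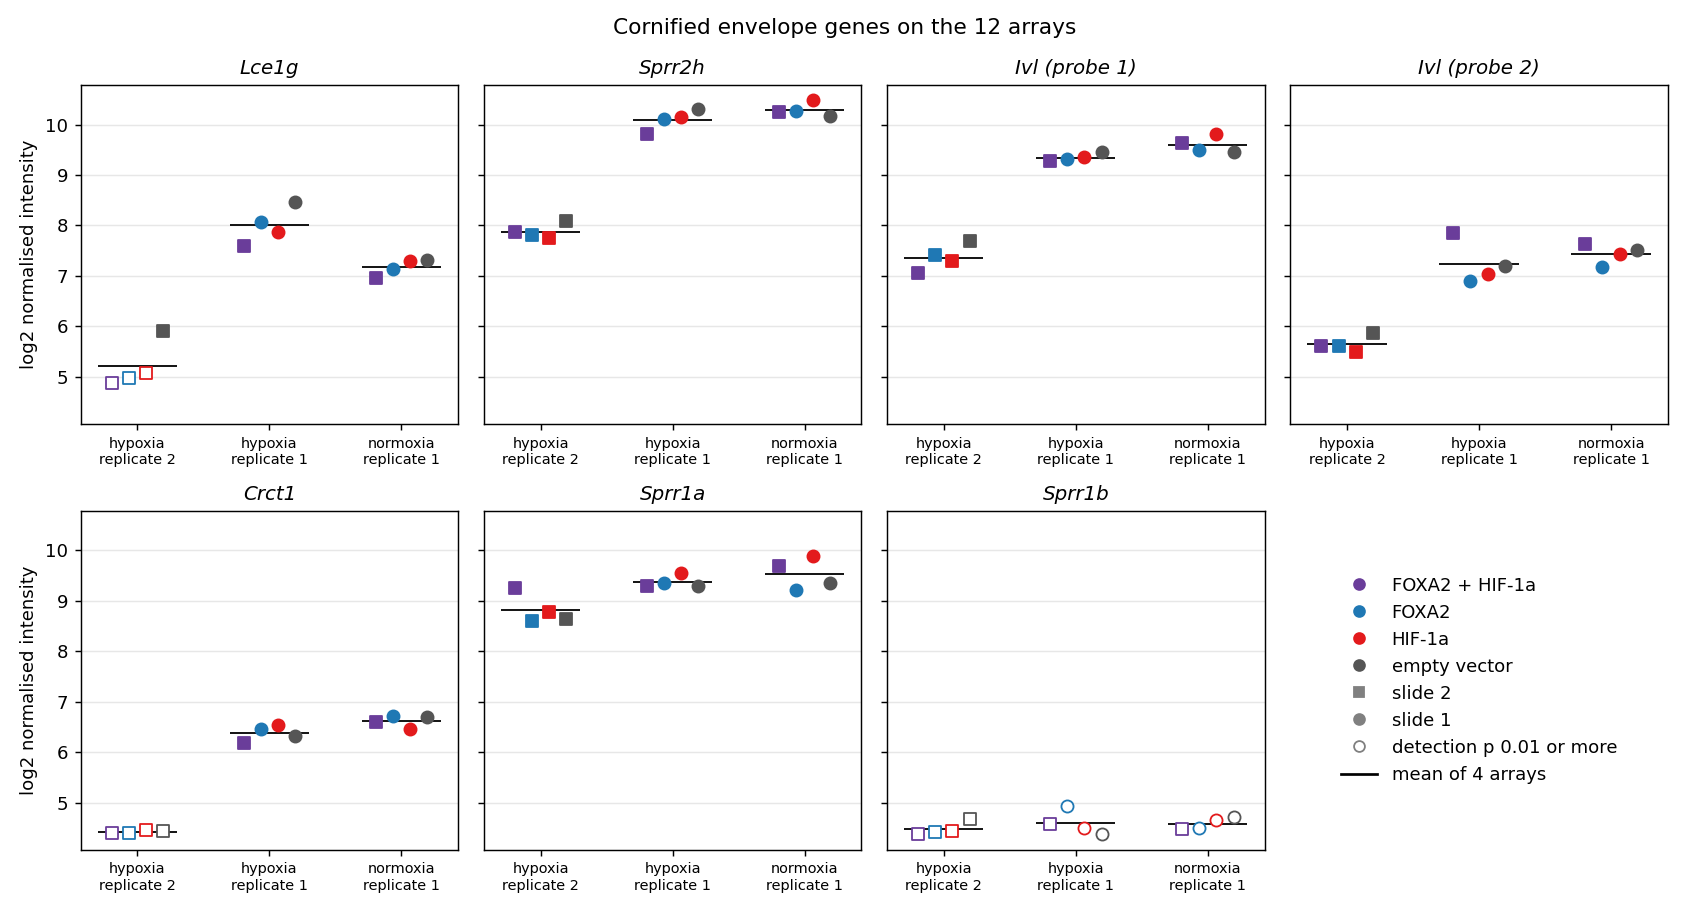
Log2 normalised intensity (vertical axis) of each probe of the 6 genes on the 12 arrays, with hypoxia replicate 2, hypoxia replicate 1 and normoxia from left to right. Colours give the transfection, squares slide 2 and circles slide 1, open symbols a detection p-value of 0.01 or more, and lines the mean of 4 arrays. Lce1g, Sprr2h, Ivl and Crct1 sit lower on all 4 arrays of hypoxia replicate 2, including the combined transfection whose arrays are all squares.

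Ivl encodes involucrin, the glutamine-rich scaffold protein of the early envelope, and was measured by 2 probes. In hypoxia replicate 2 the first probe gave 7.05 with both plasmids, 7.41 with FOXA2, 7.29 with HIF-1a and 7.70 with the control vector. Hypoxia replicate 1 gave 9.27 with both plasmids, 9.31 with FOXA2, 9.35 with HIF-1a and 9.45 with control. In normoxia it read 9.64 with both plasmids, 9.50 with FOXA2, 9.82 with HIF-1a and 9.45 with control. Replicate 2 was low on every array, while replicate 1 and normoxia lay in one band. The difference between hypoxia replicates was −1.99 ± 0.20 (SD over the 4 transfections), 3.96-fold lower in replicate 2. The second Ivl probe was lower in replicate 2 in 4 of 4 transfections, with a difference of −1.60 ± 0.45 (SD, n = 4) and a mean of 5.64 in hypoxia replicate 2, 7.24 in hypoxia replicate 1 and 7.44 in normoxia. Both probes were detected on all 12 arrays.

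Sprr2h belongs to the small proline-rich proteins that crosslink the other components. Its probe read 7.87 with both plasmids, 7.81 with FOXA2, 7.75 with HIF-1a and 8.08 with control in hypoxia replicate 2. The values in hypoxia replicate 1 were 9.81 with both plasmids, 10.11 with FOXA2, 10.15 with HIF-1a and 10.30 with control. Those in normoxia were 10.24 with both plasmids, 10.26 with FOXA2, 10.48 with HIF-1a and 10.16 with control. The replicate 2 arrays stood apart from the other 8, which overlapped one another. Sprr2h was 4.64-fold lower in replicate 2 than in replicate 1, a log2 difference of −2.21 ± 0.19 (SD, n = 4 transfections).

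Sprr1a, another small proline-rich protein, differed less. In hypoxia replicate 2 it read 9.26 with both plasmids, 8.59 with FOXA2, 8.78 with HIF-1a and 8.64 with control. In hypoxia replicate 1 it read 9.29 with both plasmids, 9.36 with FOXA2, 9.56 with HIF-1a and 9.29 with control, and normoxia lay between 9.22 and 9.88. Replicate 2 was below replicate 1 by 0.65 to 0.78 in the 3 transfections whose replicates were on different slides, and the difference was −0.03 in the combined transfection, whose replicates shared a slide. With the slide as a block the mean difference of −0.56 moved to −0.14. For this gene the replicate and the slide move together, and their parts in the difference were not tested.

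The other 4 measured genes were lower in replicate 2 within slide 2 as well. In the combined transfection alone, replicate 2 minus replicate 1 was −1.94 for Sprr2h and −2.22 for Ivl, both detected on each array of the pair. Lce1g and Crct1 were detected on the replicate 1 array of this pair and not on the replicate 2 array, with Lce1g at 4.88 in replicate 2 and 7.60 in replicate 1 and Crct1 at 4.39 in replicate 2 and 6.19 in replicate 1. On the same pair of arrays mean probe intensity was 303 in replicate 2 and 559 in replicate 1, the widest gap of the 4 pairs, and its part in these values was not tested. In the control pair, where mean intensity was 354 in replicate 2 and 378 in replicate 1, the differences were −2.56 for Lce1g, −2.22 for Sprr2h and −1.75 for Ivl, all detected on both arrays.

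Sprr1b was not well above background on any of the 12 arrays. Its probe averaged 4.48 in hypoxia replicate 2, 4.59 in hypoxia replicate 1 and 4.59 in normoxia, and the 3 sets of arrays overlapped. Lower and higher values in replicate 2 were both seen, with paired differences between −0.52 and 0.30. No replicate difference was measured for Sprr1b, although it had been picked for one. The Sprr genes are close copies of one another and the probe sequences were not used here, so how far each Sprr probe reads its relatives is uncertain.

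Lce1g, a late cornified envelope protein, differed between all 3 sets of arrays. In hypoxia replicate 2 it read 4.88 with both plasmids, 4.97 with FOXA2, 5.08 with HIF-1a and 5.90 with control, and only the control array passed the detection limit. Hypoxia replicate 1 gave 7.60 with both plasmids, 8.06 with FOXA2, 7.88 with HIF-1a and 8.46 with control. In normoxia it read 6.95 with both plasmids, 7.13 with FOXA2, 7.29 with HIF-1a and 7.31 with control. The 3 sets of arrays did not overlap: hypoxia replicate 1 was highest, normoxia intermediate and hypoxia replicate 2 lowest. Replicate 2 minus replicate 1 was −2.79 ± 0.22 (SD, n = 4 transfections) after background correction and −1.96 without it. With 1 of 4 replicate 2 arrays above background, neither value is an exact size.

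Crct1 read 6.19 to 6.53 in hypoxia replicate 1 and 6.45 to 6.71 in normoxia, and it was detected on all 8 of those arrays. In hypoxia replicate 2 it read 4.39 to 4.46 and was detected on 0 of 4. It was at least 2.03-fold lower in replicate 2 than in replicate 1, where the dim side is taken per array as the higher of its own signal and the lowest signal of any detected probe. The measured difference of −1.95 ± 0.13 (SD, n = 4 transfections) does not bound it, and without background correction it was −1.15.

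Over all genes tested, 11.3% had lower values on all 4 replicate 2 arrays than on any replicate 1 array, and 12.3% were called lower in replicate 2 by limma (adjusted p under 0.05). The 5 measured members were all among the non-overlapping ones, which follows from how they were picked. Their median difference was −1.99, beside 0.02 over all 9609 genes.

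The oxygen response can be read within slides from replicate 1 alone, since hypoxia replicate 1 and normoxia of each transfection shared a slide. Ivl, Sprr2h, Sprr1a and Crct1 overlapped between hypoxia replicate 1 and normoxia, with mean differences of −0.25 ± 0.20 for Ivl, −0.19 ± 0.25 for Sprr2h, −0.16 ± 0.24 for Sprr1a and −0.24 ± 0.22 for Crct1 (SD over 4 transfections), and each was lower in hypoxia in 3 of 4 transfections. Lce1g was higher in hypoxia replicate 1 in all 4, by 0.65 with both plasmids, 0.94 with FOXA2, 0.59 with HIF-1a and 1.15 with control. Its mean difference was 0.83 ± 0.26 (SD, n = 4), 1.78-fold. Of all genes, 14.9% were higher and 18.2% lower in hypoxia replicate 1 without overlap. The replicate 1 arrays are part of the contrast that picked these genes, so no test is given for them here either.

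Set against the same normoxia arrays, hypoxia replicate 2 was lower for each of the 5 measured genes in all 4 transfections, and the arrays did not overlap for Lce1g, Sprr2h, Ivl and Crct1. Of all genes, 26.7% were lower without overlap in this comparison, which crosses replicate number, and in 3 of 4 transfections slide. The differences were −1.96 for Lce1g, with 1 of 4 replicate 2 arrays above background, −2.41 for Sprr2h, −2.24 for Ivl and −0.72 for Sprr1a, and Crct1 was at least 2.40-fold lower. The direction for Lce1g thus depended on which hypoxia replicate was set against normoxia.

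Whether the plasmids changed these genes was asked over all 12 arrays, a comparison balanced over the replicate contrast, with limma and Benjamini-Hochberg adjustment over all 9609 genes. For the FOXA2 plasmid 0 of 5 measured genes passed adjusted p under 0.05, as did 0.0208% of all genes, and 0 of 5 had an unadjusted p under 0.05, as did 0.989% of all genes. For the HIF-1a plasmid 0 of 5 passed, against 0.0104% of all genes, and for the interaction of both plasmids 0 of 5 passed, against 0% of all genes. In these comparisons too 0 of 5 had an unadjusted p under 0.05, against 4.95% of all genes for HIF-1a and 3.39% for the interaction.

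With both hypoxia replicates in 1 group the intervals were wide, because the replicate gap counts as error. Ivl ran from 7.05 to 9.64 with a median of 9.29 on the 6 arrays with FOXA2, and from 7.29 to 9.82 with a median of 9.40 on the 6 without. Its difference was −0.15 with a 95% interval of −1.24 to 0.95. Sprr2h had a median of 9.96 on arrays with FOXA2 and 10.15 on those without, and its interval ran from −1.35 to 1.08. When the replicate number was added as a block, which the pairing of the arrays allows, the intervals narrowed and 0 of 5 genes passed in limma, beside 0.0312% of all genes for FOXA2, 0.0104% for HIF-1a and 0% for the interaction. At an unadjusted p under 0.05 that fit held 1 of 5 for FOXA2 (2.45% of all genes), 2 of 5 for HIF-1a (10.7%) and 0 of 5 for the interaction (7.57%). In that fit the FOXA2 difference was −0.14 for Sprr2h (interval −0.35 to 0.08), −0.15 for Ivl (−0.38 to 0.09), −0.02 for Sprr1a (−0.26 to 0.23) and −0.03 for Crct1 (−0.21 to 0.15).

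Lce1g had the most negative blocked estimates of the 5 genes for both plasmids. Its level ran from 4.88 to 8.06 with a median of 7.04 on arrays with FOXA2, against 5.08 to 8.46 with a median of 7.30 on arrays without. The blocked difference was −0.39 (95% interval −0.63 to −0.15), with an adjusted p of 1 in limma over all genes. For HIF-1a the blocked difference was −0.36 (interval −0.60 to −0.12) at an adjusted p of 0.454 in limma. On hypoxia replicate 2, where Lce1g was above background on the control array alone, these differences rest partly on values below the detection limit.

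Sprr1a had a positive estimate with HIF-1a. It ran from 8.78 to 9.88 with a median of 9.42 on arrays with HIF-1a and from 8.59 to 9.36 with a median of 9.25 on arrays without. The blocked difference was 0.33 (interval 0.09 to 0.58), with an adjusted p of 0.454 in limma, and it did not pass. Blocked interactions ran from −0.13 for Crct1 to 0.23 for Lce1g, and their intervals all included 0. With the slide as a block in place of the replicate, the FOXA2 estimates of all 5 genes turned positive, between 0.21 and 0.58, and 0 of 5 passed. The interactions then lay between 0.50 for Sprr1a (95% interval 0.05 to 0.96) and 1.94 for Lce1g (−0.03 to 3.91), with adjusted p of 0.322 and 0.368 in limma. That fit has no replicate term, and slide 2 holds all arrays of hypoxia replicate 2, so its slide term takes up the replicate gap. The replicate 1 arrays of the combined transfection are on slide 2 too, so these plasmid estimates are not free of that gap.

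**Figure D2:**
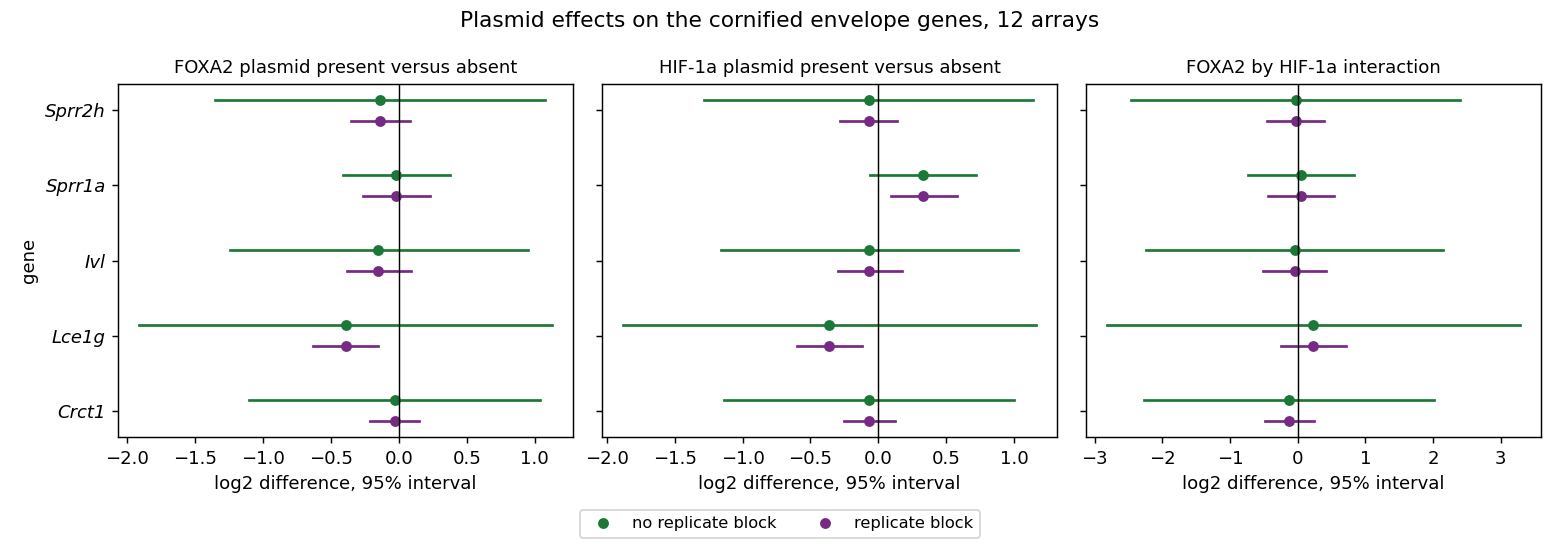
Log2 differences (horizontal axis) with 95% intervals for FOXA2 present against absent, HIF-1a present against absent and their interaction, for the 5 measured genes over 12 arrays. Green intervals leave the replicate number out of the model and purple ones hold it as a block. The points coincide and the purple intervals are the narrower ones, with Lce1g at −0.39 for FOXA2 and Sprr1a at 0.33 for HIF-1a.

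The rest of the epidermal differentiation complex was examined next. Of 46 other envelope precursors listed, 20 had a named probe and 11 passed the filter. Between the hypoxia replicates 6 of these 11 fell in replicate 2, 1 rose and 4 did not pass, with a median of −0.46, beside 12.3% of all genes lower, 13.2% higher, 25.5% called in either direction and a median of 0.02. Summed over the 20 genes with a probe, their normalised intensity ran the other way, at 1820 to 2250 in hypoxia replicate 2, 1620 to 1890 in hypoxia replicate 1 and 1550 to 1690 in normoxia. Sprr2e, the brightest of them in hypoxia replicate 2, averaged 9.62 there and 8.53 in hypoxia replicate 1, so the sum mainly follows this gene. Lce3b and Lce3c, late envelope proteins of a second subfamily, were detected on 0 of 4 replicate 2 arrays. Lce3b read 4.35 to 4.52 in hypoxia replicate 2 and 6.01 to 6.36 in hypoxia replicate 1, and Lce3c read 4.57 to 5.01 in hypoxia replicate 2 and 6.25 to 6.78 in hypoxia replicate 1, with no overlap. Lce3b was at least 1.84-fold lower (adjusted p = 9.73e-07 in limma) and Lce3c at least 2.15-fold lower (adjusted p = 1.63e-05 in limma).

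Prr9, a proline-rich gene beside Lor, fell by 1.04 on the log2 scale (SE 0.13, adjusted p = 0.000305 in limma), with 5.35 to 5.95 in hypoxia replicate 2 and 6.55 to 7.06 in hypoxia replicate 1. Kprp, the keratinocyte proline-rich protein, fell to below background in replicate 2 and was at least 1.04-fold lower (adjusted p = 0.00682 in limma). It was detected on 4 of 12 arrays, all in hypoxia replicate 1, and so passed the filter only through the set where it was high. The filter thus favoured its call. Lce1f, also called lower, was detected on 2 of 12 arrays. Sprr2e moved the other way. It read 9.43 to 9.83 in hypoxia replicate 2 and 7.71 to 9.01 in hypoxia replicate 1, higher in replicate 2 by 1.09 (SE 0.15, adjusted p = 0.000552 in limma). Sprr2e and Sprr2h are members of 1 family and differed in opposite directions across the same arrays. With the slide as a block Lce3b, Lce3c, Prr9 and Sprr2e kept their calls, and those of Kprp, Sprr2k and Lce1f were lost.

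In hypoxia replicate 1 against normoxia, which shares the replicate 1 arrays with the comparison above, 2 of the 11 precursors rose and 1 fell, with a median of 0.05, beside 13.9% of all genes higher, 16.1% lower, 30.1% called in either direction and a median of −0.03. Prr9 read 6.55 to 7.06 in hypoxia replicate 1 and 4.65 to 5.23 in normoxia, where it was below background, and rose at least 2.88-fold (adjusted p = 2.46e-06 in limma). Kprp rose at least 1.13-fold (adjusted p = 0.00458 in limma), a call that the filter favoured in the same way. Lce3c differed by −0.03 and did not pass. Lce3b fell by 0.29 (adjusted p = 0.0313 in limma), a call that was lost in 7 of the 12 fits that leave out 1 array, where adjusted p reached 0.125. Prr9, like Lce1g, was higher in hypoxia replicate 1 than in normoxia, but its replicate 2 arrays, at 5.35 to 5.95, lay above normoxia and those of Lce1g below.

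**Figure D3:**
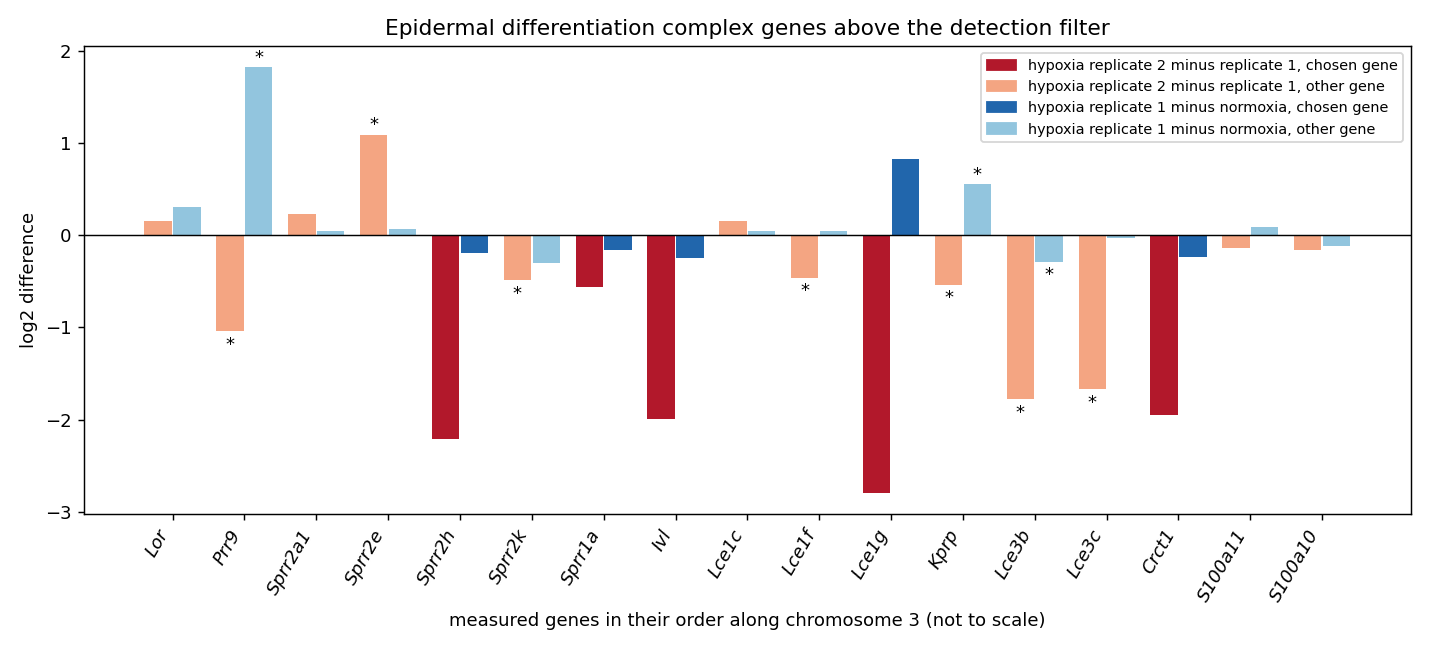
Log2 differences (vertical axis) of the 17 measured genes between Lor and S100a10 in their chromosomal order, with hypoxia replicate 2 minus replicate 1 in red and hypoxia replicate 1 minus normoxia in blue. Dark bars are the picked genes, which were not tested, and stars mark other genes with an adjusted p under 0.05. Low red bars at Sprr2h, Ivl, Lce1g, Lce3b, Lce3c and Crct1 are separated by genes such as Lce1c at 0.15 and Sprr2e at 1.09.

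The lower signal did not run through the whole stretch. Of its 53 genes, 27 had a probe and 17 were measured, and of the 12 measured genes that were not picked, 6 fell and 1 rose in replicate 2, beside 12.3% lower and 13.2% higher over all genes. With the slide as a block 3 of the 6, Sprr2k, Lce1f and Kprp, lost their call. Lor, which encodes loricrin, the main envelope protein of skin, differed by 0.15, Lce1c by 0.15 and Sprr2a1 by 0.23, and these did not pass. S100a11 at −0.14 and S100a10 at −0.16, calcium-binding proteins at the far end, did not pass either.

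S100 genes were measured for 11 of 12 with a probe. Between the hypoxia replicates 1 rose and 1 fell, with a median of 0.06, beside 13.2% higher and 12.3% lower over all genes. The 1 that rose, S100a4, lost its call when slide was a block (adjusted p = 0.281 in limma) and in 2 of 12 fits that leave out 1 array. S100a7a, the mouse relative of psoriasin, was not above background in replicate 2 and was at least 1.58-fold lower there (adjusted p = 4.97e-05 in limma). It also rose by 0.82 in hypoxia replicate 1 over normoxia (SE 0.12, adjusted p = 0.000452 in limma). S100a7a was detected on 4 arrays in hypoxia replicate 1 and 1 in normoxia. It thus passed the filter only through the set where it was high, and the filter favoured both calls.

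Genes that crosslink, anchor or process the envelope were measured for 9 of 22 with a probe, and 11 were detected on 0 arrays. In replicate 2, 4 of the 9 fell and 1 rose, with a median of −0.27, beside 12.3% lower and 13.2% higher over all genes. The 1 that rose, Cdsn, lost its call when slide was a block (adjusted p = 0.13 in limma). Serpinb2, a serine protease inhibitor of keratinocytes, averaged 6.42 in hypoxia replicate 2 and 8.06 in hypoxia replicate 1 (−1.64, SE 0.16, adjusted p = 5.64e-05 in limma). Tgm2, a transglutaminase, averaged 7.12 in hypoxia replicate 2 and 8.18 in hypoxia replicate 1 (−1.06, SE 0.11, adjusted p = 6.47e-05 in limma), and periplakin (Ppl) fell by 0.71 (SE 0.12, adjusted p = 0.0014 in limma). The other Ppl probes differed by −0.72 and −0.06, and the latter did not pass. Tgm1, the main keratinocyte transglutaminase, was detected on 1 of 12 arrays. Over normoxia, 3 of the 9 rose and 1 fell in hypoxia replicate 1, beside 13.9% and 16.1% of all genes. Evpl (0.66), Scel (0.63) and Sbsn (0.62) rose, with adjusted p of 0.00134, 0.00205 and 0.0019 in limma, and Tgm2 fell by 0.94 (adjusted p = 6.81e-05 in limma). The other detected Sbsn probes differed by 0.22 and 0.14 and did not pass.

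Keratins, junction and adhesion genes of stratified epithelium serve here as markers of squamous cells. Of 21 with a probe, 9 were measured and 11 were detected on 0 arrays, among them Krt5, Krt1, Krt15 and Sfn. Summed over the 21 genes, their normalised intensity was 1250 to 1530 in hypoxia replicate 2, 1680 to 2060 in hypoxia replicate 1 and 1580 to 1690 in normoxia. Between hypoxia replicates 4 of 9 fell and 1 rose in replicate 2, beside 12.3% and 13.2% of all genes. Krt17, 1 of the 4, lost its call when slide was a block (adjusted p = 0.124 in limma). Krt14, a basal keratin, fell by 0.89 (SE 0.11, adjusted p = 0.000199 in limma), the integrin subunit Itga6 fell by 0.69 (SE 0.15, adjusted p = 0.00565 in limma) and the differentiation keratin Krt10 fell by 0.55 (SE 0.11, adjusted p = 0.00455 in limma). The other detected Itga6 probe differed by −0.13 and did not pass. Krt16 rose to above background in replicate 2, at least 1.64-fold (adjusted p = 0.000125 in limma). The squamous marker sum was thus lower in replicate 2 along with the envelope genes. Krt10 and Krt14 were by far its brightest genes, so the sum mainly follows them. Its part in the envelope gene values was not tested. Over normoxia, 4 of 9 rose, 0 fell and 5 did not pass in hypoxia replicate 1 by limma, beside 13.9% of all genes higher and 16.1% lower, led by Itgb4 at least 1.25-fold (adjusted p = 0.00572 in limma) and Pkp1 by 0.55 (adjusted p = 0.00663 in limma). The other two, Krt10 and Krt14, lost their call in 10 and 9 of 12 fits that leave out 1 array.

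Transcription factors known to act on envelope genes were measured for 21 of 28 with a probe. In replicate 2 against replicate 1, 6 rose and 2 fell, with a median of 0.13 and beside 13.2% and 12.3% of all genes. Klf4 counted as rising by its brightest probe (0.54), while its other probes differed by −0.71 and −0.60. Their adjusted p was 0.00972 and 0.0851 in limma over all probes. The other probes of Stat3 differed by −0.18 and 0.02 and those of Vdr by 0.26 and 0.07, and these did not pass. Ovol2, Hopx and Stat3 lost their call with the slide as a block at estimates larger in size, and Klf4, Gata3 and Vdr at smaller ones. In that fit, which rests mainly on the combined transfection, 2 of these 8 genes kept their call. Those 2 were Atf3, a stress-induced bZIP factor, which rose by 0.74 (SE 0.09, adjusted p = 0.000258 in limma), and Fosb, an AP-1 subunit, which was not above background in replicate 2 and was at least 1.32-fold lower (adjusted p = 0.00723 in limma). Over normoxia, 8 of the 21 rose and 2 fell in hypoxia replicate 1, beside 13.9% and 16.1% of all genes. The AP-1 subunit Jun rose by 1.06 (SE 0.16, adjusted p = 0.000499 in limma), the nuclear receptor Ppard by 1.00 (SE 0.09, adjusted p = 1.07e-05 in limma) and Tfap2a by 0.88 (SE 0.13, adjusted p = 0.000479 in limma). Hopx, a homeodomain protein, fell by 1.11 (SE 0.11, adjusted p = 2.84e-05 in limma). Grhl3, Zfp750 and Notch1, regulators of terminal differentiation, were detected on 0 arrays.

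**Figure D4:**
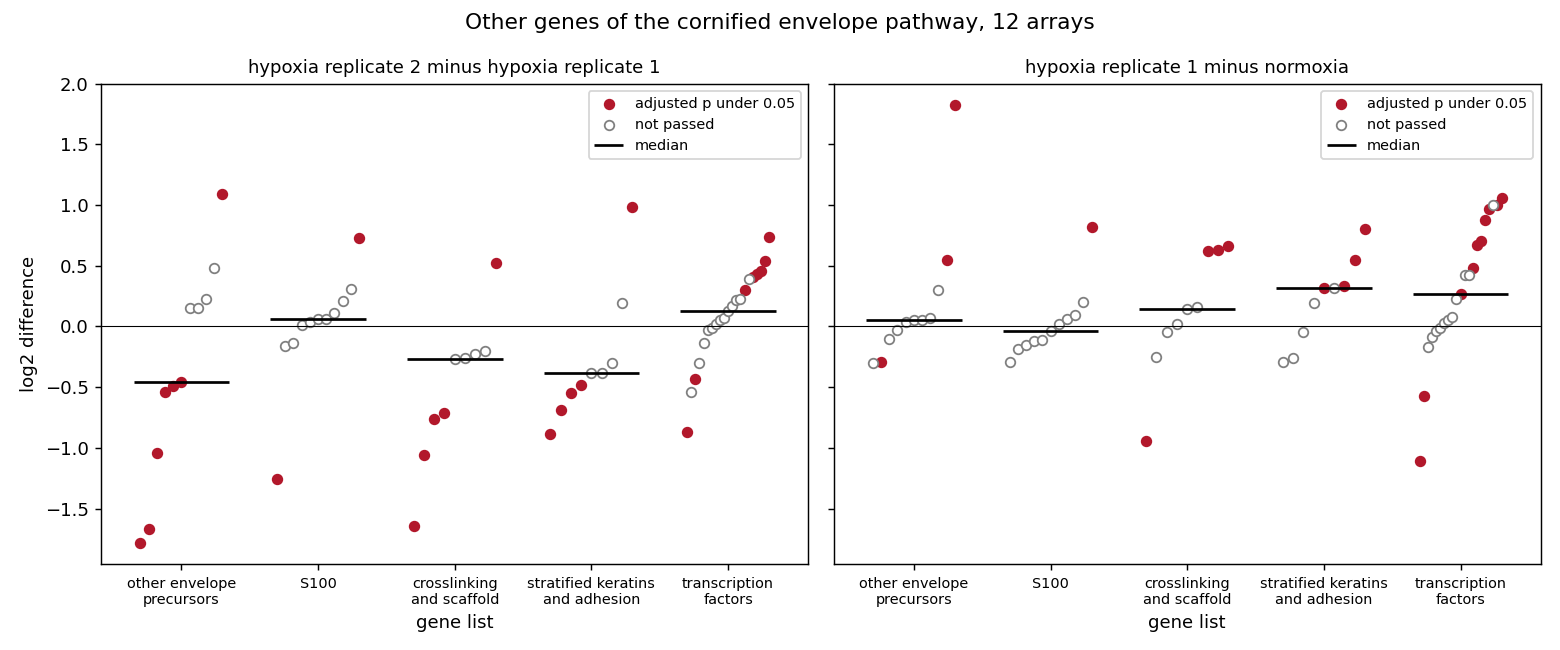
Log2 differences (vertical axis) of the measured genes of 5 lists, for hypoxia replicate 2 minus hypoxia replicate 1 (left) and hypoxia replicate 1 minus normoxia (right), over 12 arrays. Each point is a gene, red where adjusted p was under 0.05, and lines are list medians. In the left panel the medians are −0.46 for other envelope precursors and 0.13 for transcription factors, and in the right panel 0.05 and 0.27.

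For these 5 lists, 0 measured genes passed in limma for the FOXA2 plasmid, the HIF-1a plasmid or their interaction. Markers of other cell types did not all move one way between the hypoxia replicates. The fibroblast and muscle sum was lower in replicate 2, as were the measured members, and the simple epithelial and neuroendocrine sums were higher. Cdh1 (E-cadherin) rose in replicate 2 by 1.42 (SE 0.14, adjusted p = 5.33e-05 in limma), and the summed simple epithelial markers were 551 to 626 in hypoxia replicate 2, 448 to 546 in hypoxia replicate 1 and 177 to 194 in normoxia. Of the 3 measured, 1 rose and 1 fell in hypoxia replicate 1 over normoxia, with a median of −0.20. Krt19 rose at least 9.10-fold (adjusted p = 2.94e-09 in limma) and Cdh1 fell by 0.40 (adjusted p = 0.0492 in limma), a call lost in 9 of 12 fits that leave out 1 array. The summed fibroblast and muscle markers were 23400 to 27800 in hypoxia replicate 2, 27900 to 38700 in hypoxia replicate 1 and 30600 to 31600 in normoxia, and 1 of the 6 measured fell and 5 did not pass between the hypoxia replicates in limma, with a median of 0. The 1 was Dcn (decorin), which fell in replicate 2 by 0.79 (SE 0.15, adjusted p = 0.00298 in limma). Col1a2 differed by 0.42, Col3a1 by 0.27, Col1a1 by 0.14, Pdgfra by −0.14 and Acta2 by −0.34. The other Acta2 probes differed by −0.61, −0.67 and −0.42, with adjusted p of 0.0357, 0.0237 and 0.0158 in limma over all probes. Summed immune markers were 549 to 933 in hypoxia replicate 2, 519 to 646 in hypoxia replicate 1 and 438 to 478 in normoxia, and summed neuroendocrine markers were 1640 to 2190 in hypoxia replicate 2, 1360 to 1560 in hypoxia replicate 1 and 1030 to 1210 in normoxia. The endothelial genes Pecam1, Cdh5, Kdr and Tek were detected on 0 arrays. The part of these cell type markers in the envelope gene values was not tested.

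The genes whose profile was most like the mean centred profile of the measured members were ranked over the 12 arrays, which share slides and replicate numbers, among 9604 other genes. H2bc14, a histone H2B gene, had the highest correlation (r = 0.986), followed by the kinase Mapk13 (0.984), the basement membrane gene Nid2 (0.982), Enc1 (0.981) and a second histone H2B gene, H2bc12 (0.980). Nid2 averaged 7.12 in hypoxia replicate 2, 9.07 in hypoxia replicate 1 and 9.09 in normoxia. The most opposite profiles were those of Macrod1 (−0.984), the collagen-binding integrin Itga11 (−0.980), Tgfbi (−0.978), the adhesion molecule Nrcam (−0.975) and Smoc1 (−0.974). Itga11 averaged 9.60 in hypoxia replicate 2, 7.41 in hypoxia replicate 1 and 7.28 in normoxia. Among the other envelope precursors Lce3b had an r of 0.964 (rank 19) and Lce3c 0.950 (rank 42), while Sprr2e had −0.836. These correlations are descriptions of the same replicate gap by which the members were picked.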

How the data were processed

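Gene expression was measured on 12 arrays, grouped by the transfection, oxygen and replicate number in their labels. The authors' main file holds linear, non-normalized intensity values for 45281 probes, as deposited, and a detection p-value deposited beside each. How the scanner data were exported is not stated there. Their processed table of intensity for 26415 probes, whose exact normalization is unknown, served as an alternative, and 0 columns of sample values were left unused. Intensities were corrected and quantile normalized with neqc (offset 16) of limma 3.58.1 in R 4.3.3 and log2 transformed. The filter kept 17436 probes, those with detection p under 0.01 on 2 or more arrays. The brightest such probe on average stood for its gene, giving 9609 genes.

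Probes were named from the platform annotation, which covers the probes of the processed table: 21576 had 1 symbol, 11 several and 4828 none. Promoter sequences are RefSeq's, build GRCm38.p6, and 5 of 6 members matched by symbol.

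Plasmid effects came from lmFit and eBayes with oxygen, both plasmids and their interaction as terms, and replicate and oxygen differences from a fit with normoxia, hypoxia replicate 1 and hypoxia replicate 2 as separate levels beside the plasmids. P-values were adjusted by Benjamini-Hochberg over all genes and called under 0.05. Deviations of same-numbered hypoxia arrays from their group means correlated at 0.286 to 0.782 in all 6 pairs of transfections, so the numbers of the labels pair the arrays. The number of arrays limits the precision. Named genes outside the members were those called, up to 5 per list and contrast by size of change, of which the text gives a part, with others named to say that they were not detected or did not pass. The members and gene lists were chosen with earlier results of these data known. The fits were tested on simulated data. Alternatives were the replicate and slide blocks, background correction, the processed table, no filter, the handling of probes and leaving out each array.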

Additional observations from a re-analysis of the deposited data

Results flagged for a closer look

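The direction of Lce1g depended on which hypoxia replicate was set against the normoxia arrays, which carry replicate number 1. Hypoxia replicate 2 minus normoxia was −1.96 on average (−2.21 to −1.41 over the 4 transfections). Hypoxia replicate 1 minus the same normoxia arrays was 0.83 (0.59 to 1.15). The first comparison crosses replicate number and, in 3 of 4 transfections, slide, so it is not an oxygen response measured within replicate 2. Lce1g was above background on 1 of 4 arrays of hypoxia replicate 2, so the first value is not an exact size. Every transfection moved down in the first comparison and up in the second. The difference was not tested, since the members were picked for it, and both comparisons share the normoxia arrays. Each of 21 sets of 4 arrays was examined for 1 array apart from the other 3, and 0 were counted as such. Gaps within a set were still seen. In hypoxia replicate 2, Lce1g read 5.90 with control and 4.88 to 5.08 on the other 3 arrays. Sprr1a read 9.26 there with both plasmids and 8.59 to 8.78 on the other 3.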

How the results depend on the processing

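With the replicate number as a block (replicate block), 3 genes were called for FOXA2, 1 for HIF-1a and 0 for the interaction in limma, beside 2, 1 and 0 without it, and no member's call changed. Blocking on slide, which leaves the replicate difference mainly to the combined transfection, left 1608 genes called between hypoxia replicates, beside 2452. In the plasmid fits the slide stood in place of the replicate and took up its gap. There 12 plasmid estimates of members turned sign, and 0 of them passed. For FOXA2 they became 0.47 for Lce1g, 0.57 for Sprr2h, 0.42 for Ivl, 0.58 for Crct1 and 0.21 for Sprr1a; for HIF-1a 0.50 for Lce1g, 0.63 for Sprr2h, 0.50 for Ivl and 0.55 for Crct1; and for the interaction 1.37 for Sprr2h, 1.10 for Ivl and 1.09 for Crct1. The slide block also turned the replicate difference of Sprr2k to 0.18. With the mean of detected probes, the Ivl estimate became 0.03 for HIF-1a and 0.31 for the interaction, and that of Klf4 between replicates −0.26. Testing every probe called 4494 probes for hypoxia replicate 1 against normoxia and 3992 between hypoxia replicates. Without background correction Lce1g differed between replicates by −1.96, Sprr2h by −2.05, Ivl by −1.76 and Crct1 by −1.15. Beyond that overlap of slide and replicate, the causes were not tested.

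Leaving out 1 array at a time moved the count between hypoxia replicates over 1519 to 2520, lowest without FOXA2 hypoxia replicate 2. FOXA2 estimates ran from −0.80 to 0.03 for Lce1g, −0.47 to 0.19 for Sprr2h, −0.44 to 0.17 for Ivl, −0.30 to 0.27 for Crct1 and −0.14 to 0.07 for Sprr1a. HIF-1a estimates ran from −0.78 to 0.05 for Lce1g, −0.38 to 0.27 for Sprr2h, −0.34 to 0.25 for Ivl and −0.37 to 0.20 for Crct1. Interactions ran from −0.60 to 1.05 for Lce1g, −0.71 to 0.58 for Sprr2h, −0.64 to 0.59 for Ivl, −0.69 to 0.47 for Crct1 and −0.21 to 0.29 for Sprr1a. In these fits 0 of 5 members passed. The replicate differences of the 5 measured members kept their sign in every fit run, while some list calls were lost: adjusted p in limma reached 0.168 for Sprr2k and 0.0766 for Lce1f between replicates, and 0.142 for Krt10 and 0.149 for Krt14 in hypoxia replicate 1. Values near the detection limit, as for Lce1g and Crct1 in hypoxia replicate 2, bound a fold and do not measure it.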
